A study of Mus musculus with 2 samples.

Results

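Transcripts of centrosome and centriole proteins were examined in FMRP RNA immunoprecipitation sequencing (RIP-seq) of wild-type mouse testis. Members were taken by a rule on gene symbols, written with earlier results of these data known. It covered the *Cep* series with a number, the γ-tubulin complex proteins (*Tubgcp*), the augmin subunits (*Haus*) and the tectonics. A set of single genes such as *Pcnt*, *Pcm1*, *Plk4*, *Sass6* and *Alms1* was also included. The name rule matched 59 of the 4788 rows of the table, and these rows carried 57 gene symbols of 4745 in the whole table. *Plk4* and *Cep170b* each had a second row on a patch scaffold with identical values in both libraries, and both are described once. Whether their reads were divided between the rows or counted in each is not stated, so the CPM of these 2 genes may count only some of their reads. *Azi2* matched by name, although its product is known as an adaptor of innate immune signalling and not as a centrosomal protein. All measured values came from adult testicular lysate of wild-type animals, with 1 library of the lysate RNA kept before precipitation (input) and 1 library of the RNA recovered with an anti-FMRP antibody (FMRP RIP). Neither the labels nor the methods say how many animals went into the lysate. Without a second library of either kind no test between them was possible, and no library of control immunoglobulin was used here. Of 43 testis cell type markers, only *Akap4*, *Sycp1* and *Gfra1* were among the listed genes, all of them germ cell genes, so the labelled tissue could be checked against these alone.

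A centrosome consists of a pair of centrioles, built around a cartwheel and surrounded by pericentriolar material that nucleates microtubules. The older centriole carries distal and subdistal appendages, docks to the membrane as a basal body and grows an axoneme above a transition zone. In round spermatids the distal centriole templates the axoneme of the sperm flagellum, and the centriole pair becomes embedded in the connecting piece between head and tail. FMRP is an RNA-binding protein that associates with translating ribosomes and with transport granules, and much of its binding falls within coding sequence.

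The values are CPM, the reads of a gene as a share of all reads counted in that library, scaled so that each library has the same total. From the step between values, the totals were 30849871 reads for the input and 36506932 reads for the FMRP RIP, so that 1 read was worth 0.0324 CPM and 0.0274 CPM, respectively. Enrichment is given as the ratio of CPM in the FMRP RIP to CPM in the input, with an exact Clopper-Pearson 95% interval computed on whole reads after rounding, and as a log2 ratio after adding 1 CPM to both values. The intervals cover counting error only, since copies made by PCR are not independent molecules and the spread between animals is unknown. CPM is not divided by transcript length, so levels are compared between libraries and not between genes. Whole testis was measured, so fewer cells of a type and less RNA per cell cannot be told apart.

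Each row of the table is a protein-coding gene that the authors had called higher in the FMRP RIP. The direction of every value below was therefore fixed by the selection, and being listed is itself the first readout. Among RefSeq protein-coding genes of GRCm38.p6, 85 matched the name rule and 57 of these were listed (67.1%), against a listed share of 21.2% over all 21896 protein-coding symbols, expressed in testis or not. The 28 symbols of the family that were not listed were not analysed further. Because the name rule and the role groups were made with earlier results known, these shares only describe the chosen set. Listing was uneven over the parts of the centrosome. All 10 appendage genes and all 8 genes of the pericentriolar material, spindle pole and centriole linker were listed. Of 4 satellite genes 3 were listed, all but *Cep72*, and of 16 genes of centriole duplication 10 were listed, leaving out *Cenpj*, *Rttn*, *Cntrob*, *Cep44*, *Cep76* and *Cep85*. The transition zone had 8 of 13 genes listed, and the group of centriole wall, length control and capping had 9 of 16. Shares were lowest in the γ-tubulin complex, with 2 of 5 genes (40.0%), and in augmin, with 2 of 8 (25.0%). The augmin share is near the 21.2% over all protein-coding genes.

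Longer genes were listed more often in general, and genes of the family were long. By their RefSeq positions, the listed genes had a median span of 57.1 kb from start to end, the unlisted ones 27.5 kb, and all protein-coding genes 17.1 kb. Within each class of span the listed share of the family still lay above that of all genes. It was 6 of 14 (42.9%) against 8.15% under 20 kb, and 21 of 34 (61.8%) against 27.4% from 20 to under 50 kb. From 50 to under 100 kb it was 19 of 25 (76.0%) against 43.0%, and at 100 kb or more 11 of 12 (91.7%) against 49.0%. Expression in testis was not matched in these shares, because values of unlisted genes were not used here. Role groups were not compared within classes of span. Augmin genes spanned 11.3 to 33.2 kb and appendage genes 25.1 to 386.0 kb, so the uneven listing of role groups cannot be told apart from span. *Rttn* was the only family gene of at least 100 kb that was not listed.

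**Figure D1:**
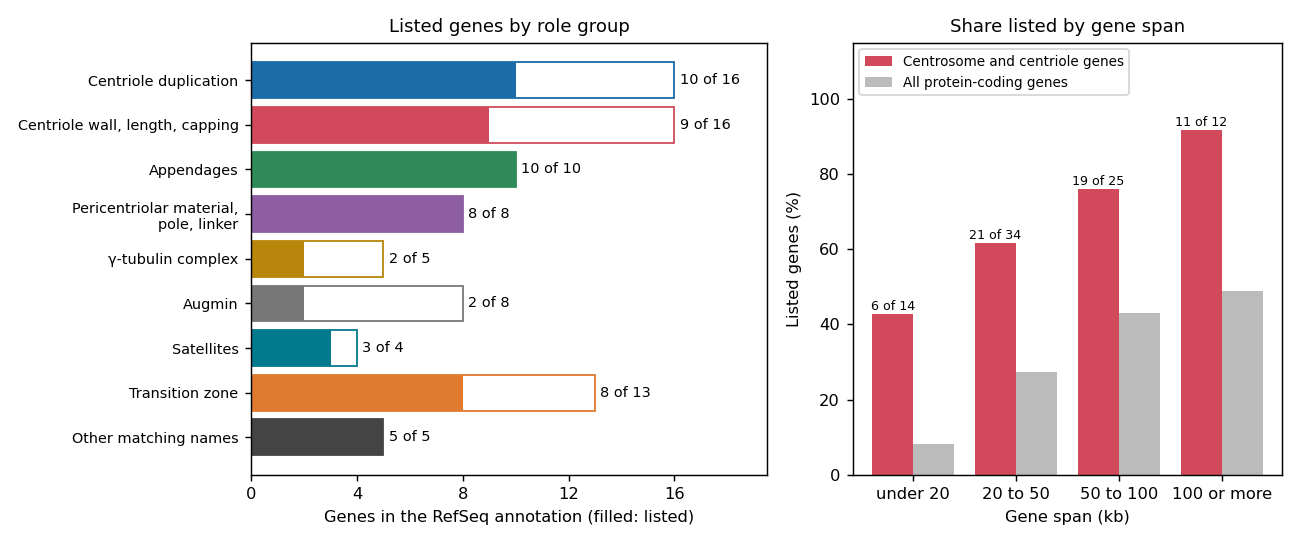
Listed genes of the centrosome and centriole family. Left, number of RefSeq protein-coding genes in each role group, with the listed ones filled. Right, percentage of genes listed by gene span in kb, for the family (red, with counts) and for all protein-coding genes (grey). The appendage and pericentriolar groups were listed completely, augmin for 2 of 8 genes, and the red bar exceeded the grey bar in each span class.

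Recovery among the listed members ranged from a log2 ratio of 0.79 to 4.78. The median over the 59 rows was 2.32, with quartiles of 1.43 and 2.98, beside a median of 1.35 and quartiles of 0.92 and 2.0 over all listed rows. A log2 ratio above 1 was reached by 52 of the 59 rows (88.1%), where 70.1% of all listed rows reached it. Above 2 there were 37 rows (62.7%, against 25.0%), above 3 there were 14 (23.7%, against 6.62%) and above 4 there were 8 (13.6%, against 1.38%). A fold change of 1.5 was reached by all 59 and by 97.3% of all listed rows. The paper's methods give this fold change as a limit for calling FMRP targets, so the selection largely fixed both shares. Together the 57 genes held 1164 CPM in input RNA and 8262 CPM after precipitation, a ratio of 7.10, while the whole table had a ratio of sums of 3.89. Much of that sum came from few genes: the 8 with a log2 ratio above 4 held 10.4% of the family's input CPM and 36.1% of its FMRP RIP CPM, and without them the ratio of sums was 5.06.

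**Figure D2:**
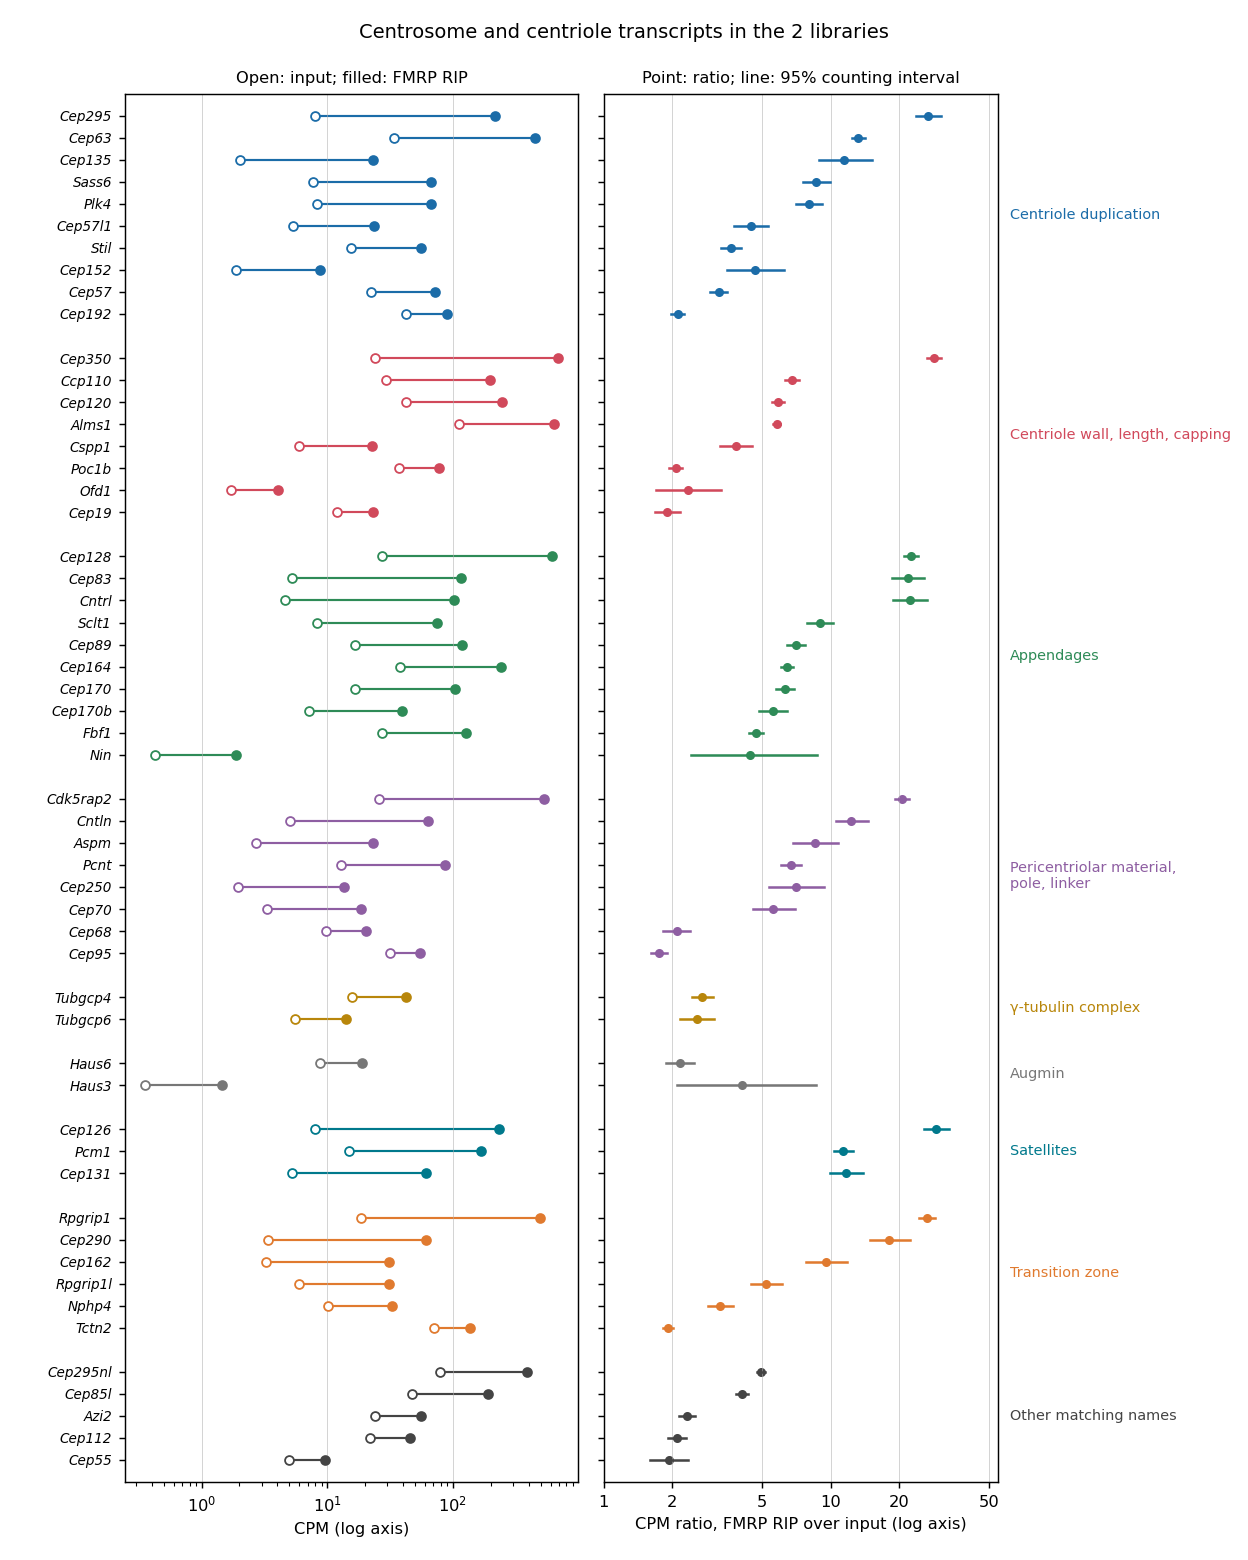
Values of 54 of the 57 genes by role group. Left, CPM in the input (open circles) and the FMRP RIP (filled circles) on a log axis; right, the CPM ratio with its 95% counting interval on a log axis. The filled circle lies to the right in each row, as the selection requires, and the ratios run from 1.75 for *Cep95* to 29.2 for *Cep126*, with wide intervals for *Nin* and *Haus3*.

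The 8 genes above a log2 ratio of 4 all ranked among the 50 highest of the 4788 listed rows, and they came from 6 of the 9 role groups. *Cep350*, whose product binds microtubules at the centriole (ENSMUSG00000033671, chromosome 1 from 155844964 to 155973255, minus strand), had 23.9 CPM in input RNA and 684.3 CPM after precipitation. Its ratio was 28.6 (interval 26.6 to 30.8), at rank 18 of the table. *Cep126*, for a satellite protein needed for microtubule organisation (ENSMUSG00000040729, chromosome 9 from 8076461 to 8134294, minus strand), had 7.91 CPM and 231.0 CPM, a ratio of 29.2 (25.7 to 33.3). The intervals of *Cep350* and *Cep126* overlap, so their order is within counting error. *Rpgrip1*, which encodes a partner of the retinitis pigmentosa GTPase regulator (ENSMUSG00000057132, chromosome 14 from 52110704 to 52163546, plus strand), had 18.5 CPM and 492.7 CPM, a ratio of 26.6 (24.5 to 29.0). *Cep295*, for a protein of new centrioles (ENSMUSG00000046111, chromosome 9 from 15316915 to 15357788, minus strand), had 8.05 CPM and 216.7 CPM, a ratio of 26.9 (23.8 to 30.7). The intervals of these 4 genes overlap one another. *Cep128*, for a subdistal appendage protein (ENSMUSG00000061533, chromosome 12 from 90998492 to 91384409, minus strand), had 27.3 CPM and 615.1 CPM, a ratio of 22.6 (21.1 to 24.2). *Cdk5rap2*, for an activator of γ-tubulin complexes in the pericentriolar material (ENSMUSG00000039298, chromosome 4 from 70216856 to 70410443, minus strand), had 25.6 CPM and 528.6 CPM, a ratio of 20.6 (19.2 to 22.2). The remaining 2 genes of this set also encode appendage proteins, *Cep83* of the distal and *Cntrl* of the subdistal kind. *Cep83* (ENSMUSG00000020024, chromosome 10 from 94688654 to 94790853, plus strand) had 5.25 CPM and 115.2 CPM, a ratio of 21.9 (18.8 to 25.8), and *Cntrl* (ENSMUSG00000057110, chromosome 2 from 35109492 to 35178822, plus strand) had 4.57 CPM and 102.0 CPM, a ratio of 22.3 (18.9 to 26.6).

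Appendage transcripts were listed for 10 of 10 genes, against 21.2% of all protein-coding genes. Of the 10, 9 were above a log2 ratio of 2, against 25.0% of all listed rows. The group median was 2.69, beside 1.35 over all listed rows. The 5 distal appendage genes had log2 ratios from 2.19 to 4.22. Distal appendages anchor the basal body to the membrane. After *Cep83*, which starts distal appendage assembly, came *Sclt1* with 8.23 CPM in input RNA and 74.0 CPM after precipitation, a ratio of 8.99 (7.90 to 10.3). *Cep89* had 16.7 CPM and 117.8 CPM, a ratio of 7.04 (6.42 to 7.73). *Cep164*, whose product recruits the kinase TTBK2 to the basal body, had 37.9 CPM and 242.2 CPM, a ratio of 6.40 (6.02 to 6.81). *Fbf1* was the lowest of the 5, with 27.1 CPM and 127.0 CPM, a ratio of 4.69 (4.36 to 5.06). The interval of *Cep83* lies above those of the other 4 distal genes. Among subdistal appendage genes, which anchor microtubules, *Cep128* and *Cntrl* had overlapping intervals, as given above. *Cep170* had 16.5 CPM and 103.7 CPM, a ratio of 6.29 (5.73 to 6.91), and its paralogue *Cep170b* had 7.13 CPM and 39.7 CPM, a ratio of 5.56 (4.82 to 6.44). The intervals of these paralogues overlap. *Nin*, for ninein, had few reads in the input, with 0.421 CPM from 13 reads, and had 1.86 CPM in the FMRP RIP. Its ratio of 4.42 has a wide interval (2.42 to 8.72), and the added 1 CPM lowered its log2 ratio to 1.01 from 2.14.

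**Figure D3:**
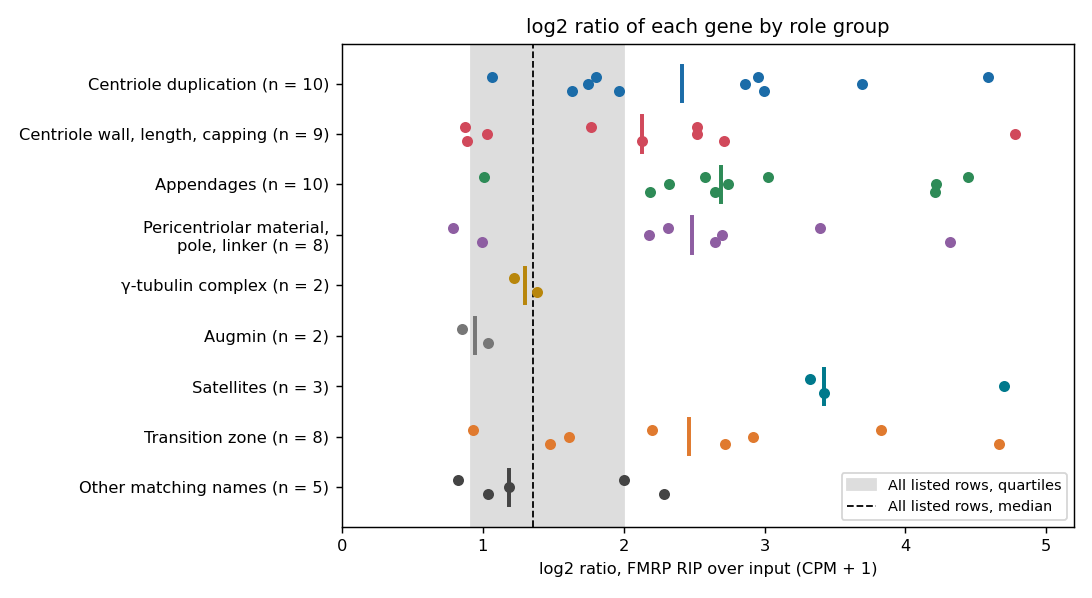
log2 ratio of FMRP RIP over input (CPM plus 1) of each of the 57 genes by role group; points are genes and coloured bars are group medians. The grey band and dashed line mark the quartiles (0.92 and 2.0) and median (1.35) of all listed rows. The medians of the appendage group (2.69) and the satellites (3.43) lie above the band, those of the γ-tubulin complex (1.30) and augmin (0.94) within it. The satellite, γ-tubulin complex and augmin medians rest on 3, 2 and 2 genes, and that of augmin was 1.57 without the added 1 CPM.

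All 3 listed satellite transcripts had log2 ratios above 3, against 6.62% of all listed rows. Centriolar satellites are granules that carry proteins to centrosomes and cilia along microtubules. *Pcm1*, which encodes their scaffold (ENSMUSG00000031592, chromosome 8 from 41239752 to 41332344, plus strand), had 14.7 CPM in input RNA and 168.2 CPM after precipitation, a ratio of 11.4 (10.4 to 12.6). *Cep131*, whose loss is known to impair sperm flagella in mice, had 5.25 CPM and 61.5 CPM, a ratio of 11.7 (9.99 to 13.8). The intervals of *Pcm1* and *Cep131* overlap, and that of *Cep126* lies above both.

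Genes of centriole duplication spread widely, from a log2 ratio of 1.07 for *Cep192* to 4.59 for *Cep295*. All 10 listed genes were above 1, against 70.1% of all listed rows. *Plk4* encodes the kinase that starts duplication. It had 8.32 CPM in input RNA and 66.7 CPM after precipitation, a ratio of 8.01 (7.03 to 9.13). *Sass6*, for the protein that forms the hub and spokes of the cartwheel, had 7.68 CPM and 66.4 CPM, a ratio of 8.64 (7.56 to 9.92), with an interval overlapping that of *Plk4*. *Stil*, for the partner that PLK4 phosphorylates to recruit SAS-6, had 15.4 CPM and 56.1 CPM, a ratio of 3.65 (3.30 to 4.04). Its interval lies below those of *Plk4* and *Sass6*, which covers counting error only. *Cep135*, whose product links cartwheel and centriole wall, had 2.02 CPM and 23.1 CPM, a ratio of 11.5 (8.89 to 15.2). CEP63, CEP152, CEP192 and CEP57 form the scaffold around the parent centriole that receives PLK4. *Cep63* had 33.7 CPM and 447.7 CPM, a ratio of 13.3 (12.5 to 14.1). *Cep152* had 1.88 CPM and 8.68 CPM, a ratio of 4.62 (3.48 to 6.22). *Cep192* had 42.7 CPM and 90.4 CPM, a ratio of 2.12 (1.99 to 2.26). The intervals of *Cep63*, *Cep152* and *Cep192* do not overlap. *Cep57* had 22.3 CPM and 71.4 CPM, a ratio of 3.20 (2.94 to 3.49), and its paralogue *Cep57l1* had 5.31 CPM and 23.7 CPM, a ratio of 4.46 (3.77 to 5.30), with intervals that do not overlap. The interval of *Cep57* overlaps that of *Cep152*.

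In the group of centriole wall, length control and capping, 7 of 9 listed genes were above a log2 ratio of 1, near the share of 70.1% over all listed rows. After *Cep350*, the next 3 genes had ratios between 5.79 and 6.74. *Ccp110*, for the protein that caps centrioles and holds back ciliation, had 29.4 CPM in input RNA and 198.0 CPM after precipitation, a ratio of 6.74 (6.29 to 7.23). *Cep120*, for a protein of centriole elongation, had 42.3 CPM and 247.9 CPM, a ratio of 5.86 (5.53 to 6.22). *Alms1*, the Alström syndrome gene of the centriole base, had 110.8 CPM and 641.9 CPM, a ratio of 5.79 (5.59 to 6.01). Its 3419 input reads were the most of any member and gave the narrow interval. *Cspp1* had 5.96 CPM and 22.8 CPM, a ratio of 3.82 (3.25 to 4.50). The last 3 genes of the group lay near the lower end of the family. *Poc1b*, for a centriole wall protein, had 37.3 CPM and 77.2 CPM, a ratio of 2.07 (1.93 to 2.22). *Ofd1*, the oral-facial-digital syndrome gene on the X chromosome, had 1.72 CPM from 53 reads and 4.03 CPM, a ratio of 2.34 (1.70 to 3.27). *Cep19* had 12 CPM and 22.9 CPM, a ratio of 1.90 (1.68 to 2.16). The intervals of *Poc1b*, *Ofd1* and *Cep19* overlap.

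The pericentriolar, spindle pole and linker genes fell into a higher set of 6 and a lower pair. Beside *Cdk5rap2*, *Pcnt*, for the pericentrin scaffold, had 12.9 CPM in input RNA and 86.0 CPM after precipitation, a ratio of 6.69 (6.02 to 7.44), with an interval below that of *Cdk5rap2*, to which pericentrin binds. *Aspm*, for a spindle pole protein whose loss causes microcephaly, had 2.69 CPM from 83 reads and 22.9 CPM, a ratio of 8.52 (6.79 to 10.8). *Cep70* had 3.34 CPM and 18.6 CPM, a ratio of 5.58 (4.53 to 6.93). The linker that holds the centriole pair together is built on C-NAP1, the product of *Cep250*, with centlein and CEP68 as further parts. *Cntln*, for centlein, had 5.09 CPM and 62.9 CPM, a ratio of 12.4 (10.5 to 14.6). *Cep250* had 1.94 CPM and 13.7 CPM, a ratio of 7.03 (5.37 to 9.35). *Cep68* had 9.76 CPM and 20.4 CPM, a ratio of 2.09 (1.83 to 2.40). The intervals of these 3 linker transcripts do not overlap one another. *Cep95* had the lowest log2 ratio of all members, 0.79, from 31.4 CPM and 54.9 CPM, a ratio of 1.75 (1.62 to 1.89).

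Transition zone genes also covered most of the range. Of the 8 listed, 7 were above a log2 ratio of 1 and 5 above 2, against 70.1% and 25.0% of all listed rows. The count above 1 is near its share. The transition zone is the gate between the basal body and the axoneme. *Cep290*, for a protein that links its microtubules to the membrane (ENSMUSG00000019971, chromosome 10 from 100487558 to 100574840, plus strand), had 3.35 CPM in input RNA and 60.9 CPM after precipitation, a ratio of 18.2 (15.0 to 22.4). *Cep162*, for a microtubule-binding partner of CEP290, had 3.24 CPM and 31.0 CPM, a ratio of 9.56 (7.79 to 11.9). *Rpgrip1l*, the paralogue of *Rpgrip1*, had 6.0 CPM and 31.3 CPM, a ratio of 5.21 (4.46 to 6.12). The intervals of the paralogues are far apart. *Nphp4*, for a protein of the same gate, had 10.1 CPM and 33.0 CPM, a ratio of 3.26 (2.87 to 3.70). Of the 3 tectonic genes only *Tctn2* was listed, with 71.2 CPM and 136.4 CPM, a ratio of 1.92 (1.82 to 2.02). *Cc2d2a*, *Mks1*, *Rpgr*, *Tctn1* and *Tctn3*, which belong to the same gate, were not among the listed genes.

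None of the 4 listed transcripts of the γ-tubulin complex and augmin groups reached a log2 ratio of 2. Over all listed rows 25.0% exceeded it, so none among 4 genes is near that share. Without the added 1 CPM *Haus3* had 2.03. *Tubgcp4* had 15.6 CPM in input RNA and 42.3 CPM after precipitation, a ratio of 2.72 (2.45 to 3.02), and *Tubgcp6* had 5.51 CPM and 14.2 CPM, a ratio of 2.57 (2.16 to 3.07), with overlapping intervals. The other 2 encode subunits of augmin, the complex that starts new microtubules along existing ones. *Haus6* had 8.72 CPM and 18.9 CPM, a ratio of 2.17 (1.88 to 2.50). *Haus3* rested on 11 input reads, 0.357 CPM against 1.45 CPM, and its ratio of 4.07 is uncertain (2.10 to 8.64). Its span also overlaps that of the protein-coding gene *Poln*.

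Of the other matching names, *Cep295nl*, a short gene named for its likeness to *Cep295*, had 78.3 CPM in input RNA and 386.5 CPM after precipitation, a ratio of 4.94 (4.73 to 5.15), far below that of *Cep295*. *Cep85l* had 47.1 CPM and 191.4 CPM, a ratio of 4.07 (3.84 to 4.31). *Azi2* had 24.1 CPM and 55.9 CPM, a ratio of 2.33 (2.14 to 2.53). These 3 lay between the extremes of the family. *Cep112*, which spans 435.4 kb and is the longest member gene, had 21.8 CPM and 45.7 CPM, a ratio of 2.10 (1.92 to 2.30). *Cep55*, for a protein of cell abscission and of germ cell bridges, had 4.93 CPM and 9.51 CPM, a ratio of 1.93 (1.59 to 2.35).

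The 7 genes that did not pass a log2 ratio of 1 were *Cep68*, *Tctn2*, *Ofd1*, *Cep19*, *Haus3*, *Cep55* and *Cep95*, and *Ofd1* and *Haus3* among them had under 100 input reads. Without the added 1 CPM, 4 genes stayed at or below 1, namely *Tctn2*, *Cep19*, *Cep55* and *Cep95*. A further 5 genes lay between 1 and 1.1, *Cep192*, *Cep112*, *Haus6*, *Poc1b* and *Nin*, so that their side of the limit rests on small differences.

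The recovery of members was set against their level in the input. Across the 57 genes, which are not independent replicates and share both libraries, Spearman's rho between log2 ratio and input CPM was 0.01, where all 4788 listed rows had 0.25. This contrast rests on the added 1 CPM, since without it rho was -0.15 over the members and -0.09 over the 4775 listed rows above 0 in the input. The median of the members lay above that of the listed rows in each class of input level. Single members lay below the listed median in each class, with lowest values from 0.79 to 0.99. Under 5 CPM in the input the median log2 ratio was 2.18 for 13 members and 1.14 for 1758 listed rows. From 5 to under 10 CPM it was 2.86 for 15 members against 1.47, and from 10 to under 30 CPM 2.58 for 17 members against 1.52. At 30 CPM or more the gap was smallest, 2.21 for 12 members against 1.56. With gene span, rho was 0.36 over the members and 0.16 over all listed rows. The 6 members spanning under 20 kb had a median of 1.26 (1.19 over all listed rows of that span), and the 10 spanning at least 100 kb had 3.21 (1.52). The 6 short members ranged from 0.83 to 2.86, and 1 of them, *Haus3*, moved from 0.85 to 2.03 without the added 1 CPM, so their median is uncertain. *Cep112* and *Nin* were exceptions, with spans above 100 kb and log2 ratios of 1.04 and 1.01. For *Nin*, with 13 input reads, this rests on the added 1 CPM, without which it had 2.14.

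**Figure D4:**
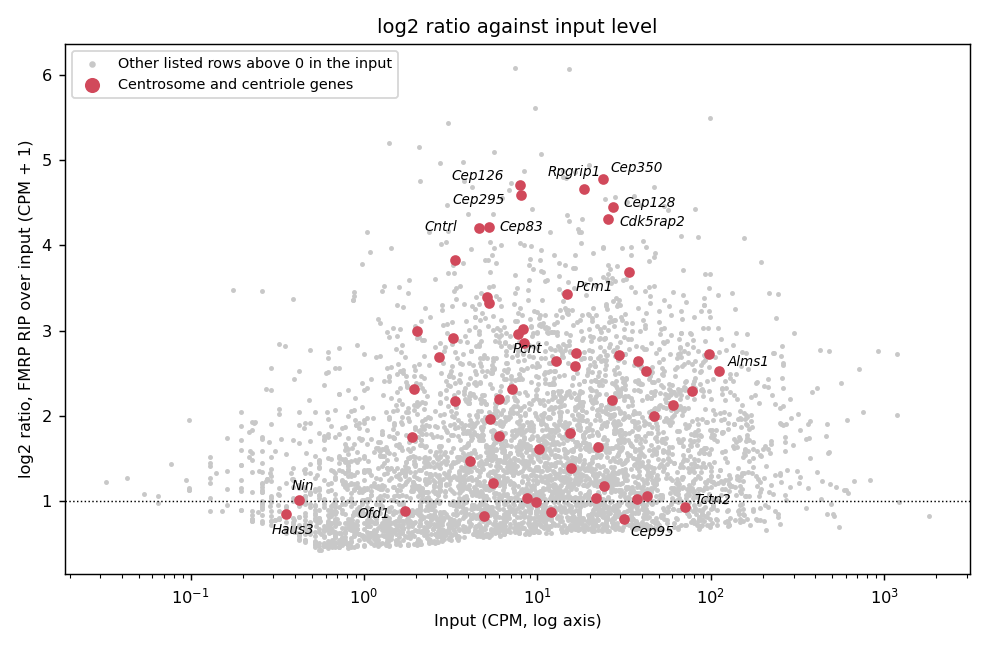
log2 ratio of FMRP RIP over input (CPM plus 1) against input CPM on a log axis for the 57 genes (red) and the other listed rows above 0 in the input (grey). The dotted line marks a log2 ratio of 1. Members reach from 0.357 CPM (*Haus3*) to 110.8 CPM (*Alms1*) in the input, and the 8 highest lie between 4.57 and 27.3 CPM.

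Members were spread over 18 chromosomes, with 9 genes on chromosome 9 and 6 each on chromosomes 4, 10 and 11. Whole reads in both libraries were found for 41 of the 57 genes within 0.005 read. The others, *Cep295*, *Plk4* and *Alms1* among them, held fractions of reads, whose origin is not given in the sources used here. The spans of 19 members overlapped another protein-coding gene of the annotation, and in 3 cases that gene was itself listed: *Supt16* for *Rpgrip1*, *Mtmr2* for *Cep57* and *Kcnab2* for *Nphp4*. The sources used here do not say whether counting used strand, so reads of such neighbours may not have been kept apart.

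Centrosome, transition zone and head-tail coupling genes outside the name rule were described from a separate list. This list was also made with earlier results of these data known, so its shares only describe the chosen genes. Of its 71 genes, 70 were in the RefSeq annotation and 38 were listed (54.3% of the 70, against 21.2% of all genes). The listed ones had a median log2 ratio of 1.94, with 32 of 38 above 1 and 18 above 2. Over all listed rows the median was 1.35, with 70.1% above 1 and 25.0% above 2. *Pmfbp1*, for a protein that fastens the sperm head to the tail, was highest, with 32.8 CPM in input RNA and 768.6 CPM after precipitation, a ratio of 23.4 (22 to 24.9). *Tsga10*, for a sperm tail protein, had 25.4 CPM and 359.0 CPM, a ratio of 14.1 (13.2 to 15.2). *Ccdc66* had 1.82 CPM and 33.0 CPM, a ratio of 18.2 (13.9 to 24.2). All 3 lay within the upper range of the named family. *Dzip1*, for a basal body protein, had a ratio of 10.8 (10.1 to 11.6), and *Ccdc146*, which is needed for sperm flagella, 13.1 (10.8 to 16.2). At the lower end by log2 ratio, *Anks6* had 0.616 CPM from 19 reads and 1.26 CPM, a ratio of 2.05 (1.18 to 3.70). *Wdr90* had 5.67 CPM and 9.29 CPM, a ratio of 1.64 (1.36 to 1.98). *Crocc*, for the rootlet protein rootletin, had 0.778 CPM from 24 reads and 1.78 CPM, a ratio of 2.29 (1.41 to 3.82). Their log2 ratios were 0.48, 0.62 and 0.65. Without the added 1 CPM they were 1.03, 0.71 and 1.19, so the low place of *Anks6* and *Crocc* rests on it.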

How the data were processed

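RIP-seq of wild-type mouse testis gave 1 input and 1 FMRP RIP library. The authors deposited CPM values per gene in 1 table of genes they called higher with edgeR, and per the labels STAR and the build GRCm38 (mm10) were used. The counting tool and its use of strand are not given in the sources used here. The table's columns of the authors' own fold changes, p-values and stringency calls were not used. CPM values were whole multiples of 0.01 read, from which library totals and reads were computed; 78.4% of input and 78.8% of FMRP RIP values above 0 were whole, so no count test was run. The log2 ratio used a pseudocount of 1 CPM, which understates the change of low genes. The floor of 3 reads was 0.0972 CPM (input) or 0.0822 CPM (FMRP RIP). The limits of size (1.5-fold and a log2 ratio above 1) follow the methods.

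Genes were matched by symbol to RefSeq (GRCm38.p6). Members, role groups and lists were chosen with earlier results of these data known. A rule based on rank within role groups gave 36 named genes (the highest, the lowest and the most abundant in the input of each role group, the 10 highest and 5 lowest members, and a list of well-known genes), and values of 54 of the 57 are given because each is described (3 members are counted in the totals but not reported singly here). Alternatives were other pseudocounts, a minimum of 1 CPM, leaving out *Azi2*, 1 row per symbol, and scaling to reads outside the listed genes. Functions were tested on simulated data. Calculations ran in Python 3.11.15 with scipy 1.17.1, pandas 2.3.3 and numpy 2.4.6, and plots in matplotlib 3.10.9.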

Additional observations from a re-analysis of the deposited data

How the results depend on the processing

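The number of member rows with a log2 ratio above 1 was 52, and stayed within 1.5 times of it under each alternative, from 45 of 59 with a pseudocount of 5 CPM to 59 of 59 when the FMRP RIP was rescaled by the reads of genes not listed. Over all listed rows, 51.7% and 4786 of 4788 passed under these settings. The median log2 ratio of 2.32 was 2.0 with a pseudocount of 5 CPM and 3.24 with the other scaling, which multiplies each FMRP RIP value by 1.92 and moved the median of all listed rows from 1.35 to 2.24. The members' median stayed 0.87 to 1.0 above that of all listed rows over the 8 settings. The 10 highest members were the same 10 without a pseudocount, and 9 of them remained with 5 CPM. A direction could not change, since the table holds genes called higher, so these settings say nothing about its stability. No paired analysis was possible because input and FMRP RIP have 1 library apiece. Depth limits 7 members with under 100 input reads, of which *Haus3* with 11 has the widest interval.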

Other observations

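Genes of the connecting piece, the head-tail junction, the manchette and centriole amplification were taken from the same list of related genes. All genes named here were chosen after their values were seen. *Odf2*, for an outer dense fibre protein that is also part of the appendages of the mother centriole, took 924.4 CPM in input RNA and 6271 CPM after precipitation, a ratio of 6.78 (6.70 to 6.87). *Spata6*, needed for the connecting piece, had 269.2 CPM and 809.3 CPM, a ratio of 3.01 (2.93 to 3.08). *Hook1*, needed for the manchette of spermatids, had 52.9 CPM and 272.8 CPM, a ratio of 5.16 (4.90 to 5.44). *Deup1*, for a protein of centriole amplification in multiciliated cells, had 23.5 CPM and 130.9 CPM, a ratio of 5.56 (5.14 to 6.02). *Sun5*, *Odf1* and *Ccdc42* were not among the listed genes.

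*Ttbk2*, for the kinase that CEP164 recruits to the basal body, had 96.5 CPM and 794.1 CPM, a ratio of 8.23 (7.92 to 8.55), above the interval of *Cep164*. *2700049A03Rik*, the mouse gene of TALPID3, carries a RIKEN name in the table and so lay outside the name rule. It had 22.9 CPM and 179.1 CPM, a ratio of 7.81 (7.23 to 8.46) and a log2 ratio of 2.91.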
